A study of Mus musculus with 20 samples.

Results

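The mechanotransduction complex of hair cells was followed through 10 genes of the 24411 in the expression tables: Tmc1, Tmc2, Tmie, Lhfpl5, Cib2, Pcdh15, Cdh23, Ush1c, Ush1g and Myo7a. They form a list of named channel, tip link and Usher complex genes. No rule on measured values was used, but the list was chosen with earlier results of these data known. Hair cells turn sound into current when their stereocilia are deflected and the tip links between neighbouring stereocilia are pulled. The tip link is built from cadherin 23 (Cdh23) at its upper end and protocadherin 15 (Pcdh15) at its lower end, where the transduction channel sits. Tmc1 and Tmc2 encode its pore-forming subunits, Tmie, Lhfpl5 and Cib2 encode accessory subunits, and harmonin (Ush1c), SANS (Ush1g) and myosin VIIa (Myo7a) hold the upper end of the link. In the mouse cochlea Tmc2 is known as the early, transient channel gene and Tmc1 as the one that persists in mature hair cells.

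The study compared Bai1tm2b/+ mice (Het, the littermate controls) with Bai1tm2b/tm2b mice (Homo) at postnatal days 7 and 22 (P7 and P22). The tm2b allele lacks exons 3 and 4 of Adgrb1 (Bai1), an adhesion receptor, and carries a lacZ cassette, and the controls carry one copy of it. Mice of both genotypes and both sexes shared a C57BL/6N background with the hypomorphic Cdh23ahl allele, so one member of the list is itself a variant allele in every library. Each of the 20 libraries was made from poly(A) RNA of the sensory epithelium and spiral ganglion of 4 mice and gives the mean of a pool. At P22 there were 3 Het and 3 Homo libraries, and at P7 there were 2 batches, of 3 and of 4 libraries per genotype.

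The P22 libraries and P7 replicates 5 to 7 were given as estimated counts, with totals of 35725985 to 40350413 and 31108551 to 58807173, and P7 replicates 1 to 4 as TPM (transcript abundance per length, scaled to a fixed total) rounded to whole numbers, whose depth is unknown. Adgrb1 itself was at 100 to 105 CPM (counts scaled to a library total of 1000000) in the P22 Homo libraries against 152 to 167 in Het, at 21.6 to 31.2 against 32.1 to 56.4 in the P7 counts, and at 9 to 12 against 7 to 12 TPM in the other P7 set. Its gene total also counts isoforms outside the deleted exons, so in the rounded TPM it checks no label. In pigment cell and stria transcripts 2 libraries stood apart with high values. P22 Het replicate 2 held 8490 counts of the pigment cell gene Dct, against 34 to 68 in the other P22 libraries. It also held 1900 counts of the stria gene Kcne1, against 17 to 40. Pmel, another pigment cell gene, was at 153 counts in it, against 149 to 257. Myo7a, which pigment cells also use, was at 44.3 CPM there and at 43.2 and 46.7 in the other P22 Het libraries. P7 Het replicate 3, in rounded TPM, held 212 TPM of Dct against 4 to 59 in the other Het and 13 to 29 in the Homo libraries, and its Myo7a was at 6 TPM beside 7 to 8 in the other Het libraries. Kcne1 there was at 19 TPM, against 0 to 7 in the other libraries of that set. P7 Homo replicate 6 was low instead. Dct was at 5.68 CPM in it, against 20.1 to 46.45 in the other P7 libraries in counts, and Kcne1 at 0.437 against 4.93 to 12.8.

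All 10 genes have their own model in GENCODE vM21 on GRCm38, the assembly also called mm10. The channel genes are Tmc1 (chr19:20783458-20954202, minus strand) and Tmc2 (chr2:130195194-130264445, plus strand), and the accessory genes are Tmie (chr9:110865711-110880113, minus), Lhfpl5 (chr17:28575641-28585679, plus) and Cib2 (chr9:54544794-54560218, minus). The tip link genes both lie on chromosome 10, Pcdh15 at chr10:73099342-74649737 on the plus strand and Cdh23 at chr10:60302748-60696490 on the minus strand. The Usher genes are Ush1c (chr7:46195350-46238503), Ush1g (chr11:115315192-115322041) and Myo7a (chr7:98051060-98119524), all on the minus strand. Exons of a gene on the other strand cover 15.8% of the exon bases of Cib2, 7.89% of Tmie and 3.12% of Ush1c, and whether counting used strand was not given in the sources used here, so part of their counts could belong to those neighbours. Pcdh15 has 41 annotated transcripts and Cdh23 has 16, which the gene totals add together.

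Promoter sequences are shown for 4 members that stand for the different patterns with age described below: Tmc1 and Ush1c, which were lower at P22, Cib2, which was higher, and Cdh23, which did not pass the test. RefSeq (GRCm38.p6) gave a promoter for 8 of the 10 members, Tmc2 and Ush1g being without one. Each line is the minus strand read 5′ to 3′ from base 250 to base 31 before the RefSeq start, and capitals mark matches to CANNTG, the E-box that basic helix-loop-helix factors such as Atoh1 bind.
Tmc1, chr19:20954233-20954452: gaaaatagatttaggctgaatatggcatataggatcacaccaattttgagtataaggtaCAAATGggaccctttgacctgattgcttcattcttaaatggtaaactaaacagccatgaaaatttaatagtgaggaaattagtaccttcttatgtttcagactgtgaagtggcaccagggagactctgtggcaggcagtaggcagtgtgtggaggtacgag
Ush1c, chr7:46238521-46238740: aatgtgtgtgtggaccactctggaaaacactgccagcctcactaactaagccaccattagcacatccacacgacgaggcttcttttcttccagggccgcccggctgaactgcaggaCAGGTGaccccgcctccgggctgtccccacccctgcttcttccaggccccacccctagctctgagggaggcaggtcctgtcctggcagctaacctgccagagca
Cdh23, chr10:60696521-60696740: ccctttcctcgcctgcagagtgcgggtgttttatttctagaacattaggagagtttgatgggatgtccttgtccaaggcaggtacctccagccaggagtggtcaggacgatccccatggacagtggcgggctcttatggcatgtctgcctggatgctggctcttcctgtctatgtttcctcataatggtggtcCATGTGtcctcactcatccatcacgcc
Cib2, chr9:54560221-54560440: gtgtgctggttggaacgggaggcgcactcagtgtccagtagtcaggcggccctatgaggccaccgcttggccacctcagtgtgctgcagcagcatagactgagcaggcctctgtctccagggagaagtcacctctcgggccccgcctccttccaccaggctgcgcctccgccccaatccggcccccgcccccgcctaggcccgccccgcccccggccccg
The motif reads the same on both strands, and 62.1% of 32851 RefSeq promoters held it in a window of this length. Tmc1, Ush1c and Cdh23 held 1 match each and Cib2 held 0. The Cib2 window was 70.9% G and C with 4 matches to GGGCGG on either strand, a motif found in 28.5% of promoters, and the Tmc1 window was 40.5% G and C with 0. These matches describe the letters of the window and say nothing of what binds there.

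Levels can be compared between genes only per length, and CPM was divided by the length of the longest annotated transcript in kilobases. At P7, over the 6 libraries in counts, Ush1c (37.3 ± 6.28 CPM per kb, SD, n = 6) and Cib2 (28.9 ± 5.66) were the most abundant members, and their ranges overlapped. Lhfpl5 (10.2 ± 2.14), Myo7a (7.24 ± 0.770) and Tmc1 (6.37 ± 1.33) followed, each overlapping its neighbour in the order. Below a gap came Tmie (3.08 ± 0.377), Cdh23 (2.81 ± 0.513) and Pcdh15 (1.89 ± 0.376), again each overlapping the next. Ush1g (0.397 ± 0.111) and Tmc2 (0.360 ± 0.160) were lowest and overlapped each other. Divided by all annotated exon bases instead, P7 levels kept this order, with lower values for 7 of the 10, among them Lhfpl5 (6.92), Tmc1 (3.61), Cdh23 (1.84) and Pcdh15 (0.723 CPM per kb).

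At P22 the order had changed at its top. Cib2 (42.7 ± 5.90 CPM per kb, n = 6) stood alone, above Lhfpl5 (15.4 ± 1.60) and Ush1c (12.1 ± 2.35), whose ranges overlapped. Myo7a (6.43 ± 0.699) was separate from those above and below it. The ranges of Cdh23 (2.81 ± 0.459), Tmc1 (2.51 ± 0.435) and Tmie (2.13 ± 0.330) overlapped, as did those of Ush1g (1.24 ± 0.131) and Pcdh15 (1.05 ± 0.233). Tmc2 was far below the rest at 0.0308 ± 0.0302 CPM per kb. In the P7 libraries in TPM, a unit that already divides by length, the order of the leading genes was Cib2 (112 ± 11.2 TPM, n = 8), Ush1c (42.6 ± 4.63), Lhfpl5 (20.1 ± 2.03), Myo7a (8.25 ± 1.58), Tmc1 (6.50 ± 1.07) and Tmie (5.38 ± 0.744). Cib2 and Ush1c thus stood in the other order than in the P7 counts, which are in another unit. Divided by all annotated exon bases, they were close in the P7 counts, at 28.9 and 29.7 CPM per kb. Whether batch or unit made the difference was not tested.

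Tmc2, the early channel gene, was present at P7 and almost absent at P22. Its counts at P7 were 42, 50 and 41 in Het replicates 5, 6 and 7 and 35, 74 and 61 in the Homo replicates. At P22 they were 9, 2 and 5 in Het replicates 1, 2 and 3 and 2, 1 and 1 in Homo. Every P22 library lay below every P7 library. Added up and scaled for depth, 20 counts at P22 against 303 at P7 gave a ratio of 0.0869 (95% counting interval 0.0523 to 0.137), 11.5-fold lower, where the interval covers counting error only.

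Tmc1, the persisting channel gene, was also lower at P22. Its counts at P7 were 1326, 1202 and 1010 in Het and 985, 1090 and 1317 in Homo, which is 25.9 ± 5.44 CPM (n = 6). At P22 they were 276, 253 and 340 in Het and 403, 469 and 417 in Homo, or 10.2 ± 1.77 CPM. The P22 libraries all lay below the P7 libraries, and the fitted difference was -1.35 on the log2 scale (SE 0.129, 95% interval -1.63 to -1.07, edgeR quasi-likelihood test with Benjamini-Hochberg adjusted p = 5.93e-07). No gain of Tmc1 accompanied the loss of Tmc2 between these ages in the tissue as a whole. Scaled to 12 hair cell markers in place of all genes, the Tmc1 difference shrank to -0.32 and was no longer called.

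The balance between the channel genes can be read within each library, where depth and scaling cancel. At P7 there were 31.7, 41.6 and 40.6 Tmc2 counts per 1000 Tmc1 counts in the Het libraries and 35.5, 67.9 and 46.3 in Homo. Tmc1 already held most of the sum at P7: per length of the longest transcript, Tmc2 made up 3.86% to 7.92% of the sum of the pair, or 6.61% to 13.2% where length was taken as all annotated exon bases. At P22 the values were 32.6, 7.91 and 14.7 per 1000 in Het and 4.96, 2.13 and 2.40 in Homo. P22 Het replicate 1, with 9 Tmc2 counts, reached the lower end of the P7 range, and the other P22 libraries did not. The mean log2 ratio of Tmc2 to Tmc1 was -7.21 ± 1.53 at P22 and -4.55 ± 0.381 at P7, a difference of -2.65 (exact 2-sided permutation test, p = 0.00433, n = 6 per age, smallest possible p 0.00216).

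**Figure D1:**
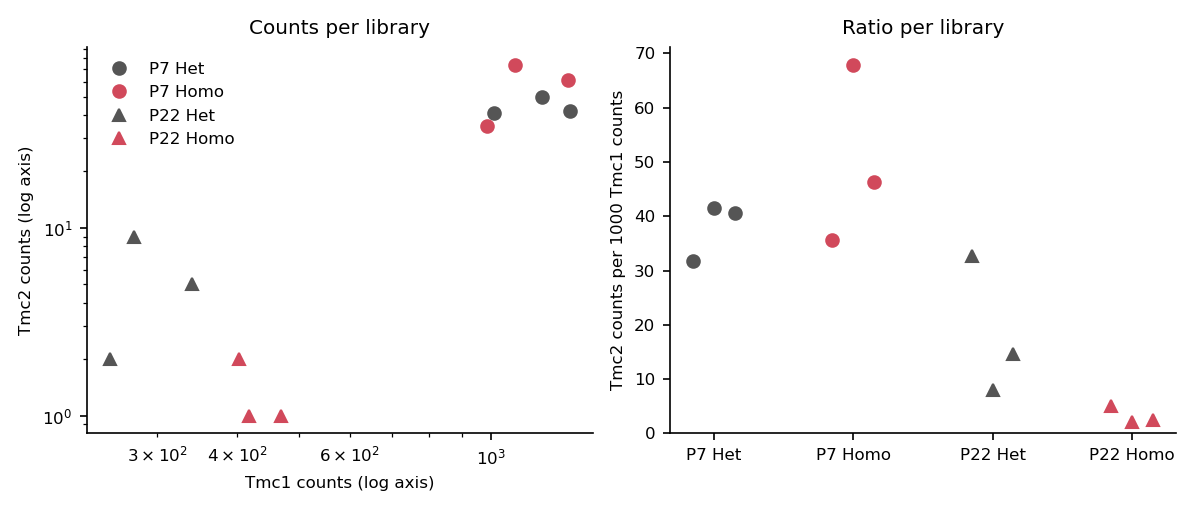
Tmc2 against Tmc1 counts on log axes (left) and Tmc2 counts per 1000 Tmc1 counts on a linear axis (right), one point per library, for the 12 libraries in counts. The P7 libraries sit at 31.7 to 67.9 per 1000 and the P22 libraries at 2.13 to 32.6.

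By genotype, the fall in the ratio was -1.27 in Het (exact permutation p = 0.2, n = 3 per age) and -4.03 in Homo (exact permutation p = 0.1), and 0.1 is the smallest p that 3 against 3 allows. At P22 the log2 ratio was lower in Homo than in Het by a mean of -2.41 with no overlap (exact permutation p = 0.1, n = 3), resting on 4 Tmc2 counts in Homo and 16 in Het. Scaled for depth, that is a ratio of 0.223 (95% counting interval 0.0543 to 0.691). The interval covers counting error only and not the spread between libraries, and 9 of the 16 Het counts came from replicate 1. That library also held 15 counts of Cib3, a gene described below, against 0 to 2 in the other P22 libraries. At P7 the Homo minus Het difference of the log2 ratio was 0.35 (exact permutation p = 0.4, n = 3), and the groups overlapped. In the age by genotype test Tmc2 had a difference of -2.70 (SE 0.854, unadjusted p = 0.00804, adjusted p = 0.320 by edgeR), which did not pass.

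Over all 10 members, 5 were called lower and 3 higher at P22 than at P7, where a call needs an adjusted p under 0.05, a log2 difference above 0.5 in size and an SE under 0.5. By that rule 54.6% of the 16314 genes tested were called between the ages, 28.7% lower and 25.9% higher, so calls were common throughout the table. The median log2 difference was -0.36 over the members and -0.05 over all genes, with 3 of 10 members and 47.7% of genes above 0. The ages did not overlap for 8 of the 10 members and for 62.6% of all genes. Each age was a separate batch of replicates, and age and batch cannot be told apart. In Het alone 7 of 10 members were called (background 51.8%) and in Homo alone 6 of 10 (background 49.3%). Tmc2 was called in Het at -2.46 (SE 0.496). In Homo it was at -5.16 (SE 0.606, adjusted p = 7.18e-06 by edgeR) and was not called only because its SE was over the limit. In these bulk samples, fewer hair cells in the dissected piece and less RNA per hair cell cannot be told apart either.

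Among the accessory genes the direction differed. Tmie, which links the channel to the tip link, was at 9.16, 7.81 and 7.86 CPM in P7 Het, 7.64, 10.3 and 8.93 in P7 Homo, 5.80, 5.31 and 4.78 in P22 Het and 6.05, 7.48 and 6.31 in P22 Homo. Each P22 library was below each P7 library, by a fitted -0.54 (SE 0.101, adjusted p = 0.000294), or by -0.48 and without a call when P7 Homo replicate 6 was left out. Lhfpl5, a tetraspan partner of Pcdh15, went the other way, from 20.1, 14.03 and 14.98 CPM in P7 Het and 11.7, 20.1 and 18.1 in P7 Homo to 22.9, 24.2 and 22.7 in P22 Het and 23.6, 28.0 and 28.5 in P22 Homo. Its fitted difference was 0.59 (SE 0.127, adjusted p = 0.000819) and the ages did not overlap.

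Cib2, a calcium- and integrin-binding protein, rose by a similar amount. Its 6 P7 libraries lay between 32.5 and 53.5 CPM (mean 41.5 ± 8.11) and its 6 P22 libraries between 54.1 and 72.0 (mean 61.2 ± 8.46). The difference was 0.56 (SE 0.121, adjusted p = 0.000940). Lhfpl5 and Cib2 were close to the size limit of 0.5: without P7 Homo replicate 5 their differences were 0.50 and 0.48 and neither was called, and without TMM scaling they were 0.31 and 0.27.

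The tip link cadherins differed from each other. Pcdh15, the lower part of the link, was at 18.3, 13.5 and 15.7 CPM in P7 Het and 14.3, 22.6 and 18.9 in P7 Homo, and at 8.44, 7.61 and 8.95 in P22 Het and 8.05, 12.5 and 11.97 in P22 Homo. The fitted difference was -0.85 (SE 0.137, adjusted p = 8.15e-05), with no overlap. Cdh23, the upper part, had the same mean at both ages, 31.2 ± 5.70 CPM at P7 and 31.2 ± 5.09 at P22, and a difference of -0.00 (95% interval -0.22 to 0.21).

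In the Usher group Ush1c had the largest drop after Tmc2 and Ush1g the largest rise. Ush1c, the scaffold harmonin, was at 80.7 to 136 CPM over the P7 libraries and 28.8 to 49.2 over the P22 libraries, a difference of -1.63 (SE 0.109, adjusted p = 1.94e-08), with a wide gap between the ages. Ush1g, the scaffold SANS that binds harmonin, was counted 73, 69 and 49 times in P7 Het, 49, 34 and 87 times in P7 Homo, 128, 139 and 122 times in P22 Het and 146, 150 and 173 times in P22 Homo. Every P22 library exceeded every P7 library, and the difference was 1.64 (SE 0.182, adjusted p = 2.55e-06), 3.12-fold. Myo7a, the motor, was at 44.0 to 60.7 CPM at P7 and 43.2 to 56.3 at P22, overlapping, with a difference of -0.17 (adjusted p = 0.0503).

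Most hair cell markers were lower at P22, while the members went in both directions. Of the 12 markers (Myo6, Pou4f3, Gfi1, Barhl1, Lhx3, Rbm24, Otof, Slc17a8, Slc26a5, Ocm, Strc and Cabp2), all detected in every library in counts, 9 were called lower at P22 and 1 higher, with a median log2 difference of -1.06, and their summed level was 666 to 1073 CPM at P7 and 420 to 642 at P22. The largest drops were in the transcription and splicing factors Rbm24 (-2.75), Lhx3 (-1.94) and Pou4f3 (-1.84), and Cabp2, a calcium-binding protein of the inner hair cell synapse, was the marker called higher (0.67). All 8 neuron markers were called higher, with a median of 2.59 and a sum of 992 to 2582 CPM at P7 and 10158 to 15664 at P22. Of 8 supporting cell markers 5 were called lower and 2 higher (median -1.17), of 6 Schwann cell and myelin markers 4 were higher (median 0.95), 5 of 5 bone and 4 of 4 macrophage markers were lower (medians -2.21 and -0.82), both tested erythroid markers were higher, and 0 of 5 pigment cell and stria markers were called. Scaled to the hair cell markers, which moved the median of all genes to 0.94, 5 members were called higher (Lhfpl5 1.63, Cib2 1.59, Ush1g 2.65, Cdh23 1.01 and Myo7a 0.83) and 2 lower (Tmc2 -2.79 and Ush1c -0.63), where 65.7% of all genes were called higher and 8.61% lower on that scale, while Tmie turned to 0.47 and Pcdh15 to 0.17 without a call.

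**Figure D2:**
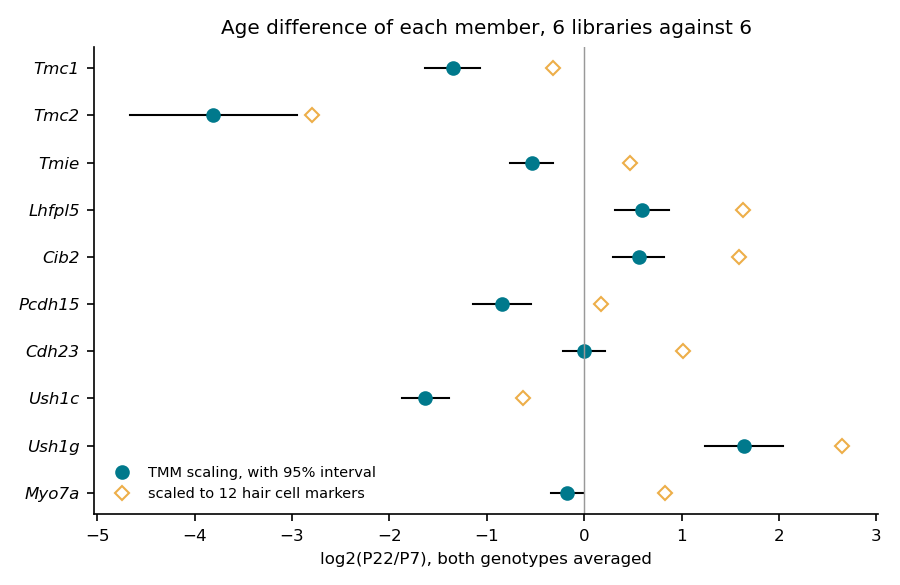
Log2 difference of each member between P22 and P7 (6 libraries each), with TMM scaling over all genes (filled points, lines show 95% intervals) and scaled to 12 hair cell markers (open diamonds). Tmc1, Tmc2 and Ush1c lie below 0 and Lhfpl5, Cib2 and Ush1g above 0 on both scales, while Cdh23, Myo7a, Tmie and Pcdh15 lie above 0 only on the hair cell scale. The value of Tmc2 rests on 20 counts at P22 and depends on the prior count of the fit.

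**Figure D3:**
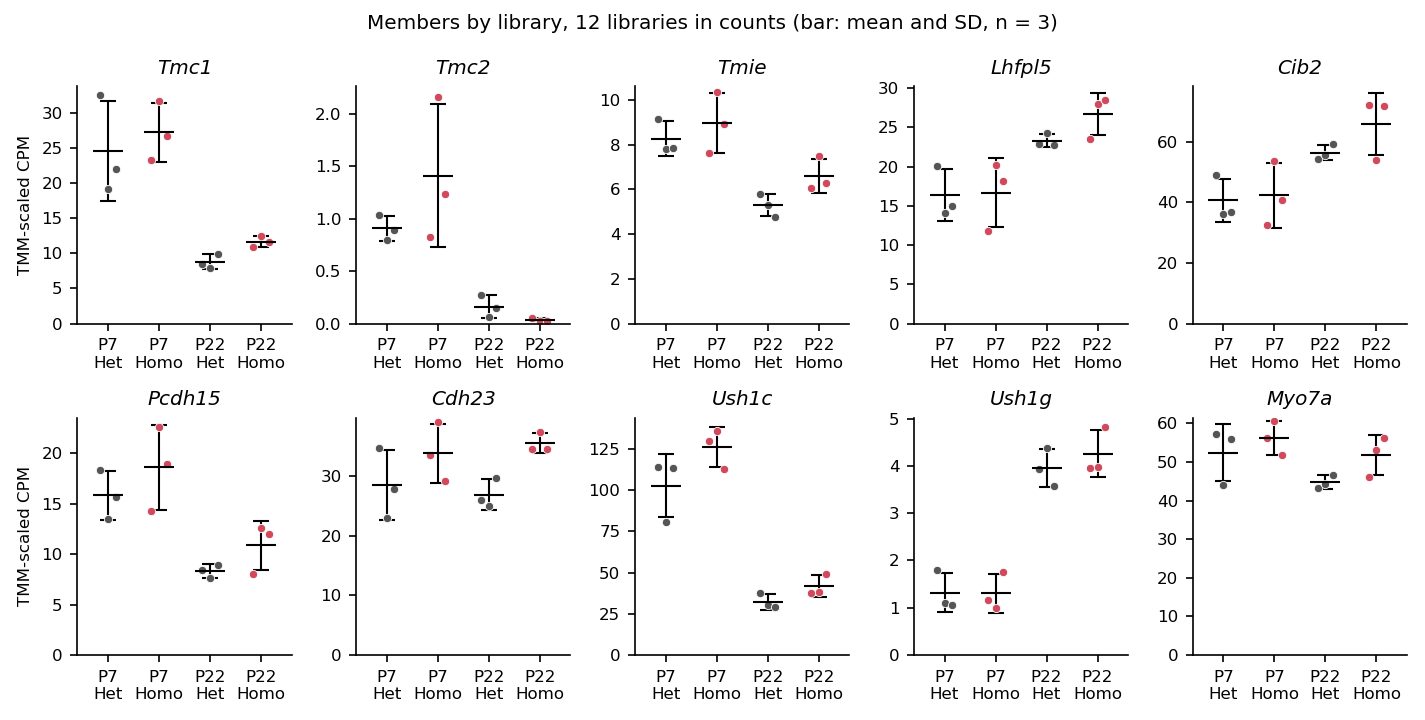
TMM-scaled CPM of the 10 members in each of the 12 libraries in counts (points), with the mean and SD of each group (bars, n = 3), on linear axes from 0. Tmc1, Tmc2, Tmie, Pcdh15 and Ush1c are lower and Lhfpl5, Cib2 and Ush1g higher in all P22 libraries than in all P7 libraries on this scale; Tmie and Pcdh15 lay above 0 with age when scaled to hair cell markers.

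Other genes of transduction and of the stereocilia links, 18 in all, gave a mixed picture of the same kind. Of 17 tested, 9 were called lower and 3 higher at P22, with a median of -0.73. The largest drops were in Pkhd1l1 (-3.21), a coat protein of developing stereocilia, Piezo2 (-2.51), a mechanosensitive channel, and Grxcr1 (-2.47), a regulator of stereocilia growth. The rises were in Clrn2 (2.51), Atp2b2 (1.85), the calcium pump of hair bundles, which neurons also use, and Clrn1 (1.44). Among 13 paralogs of the members, 12 were tested, 5 were called lower and 2 higher (median -0.73). Tmc8 (-1.01), Tmc7 (-0.98) and Tmc4 (-0.90) were lower, and Lhfpl3 (3.36) and Lhfpl4 (2.97) were higher. Cib3, which can stand in for Cib2 in vestibular hair cells, failed the filter on low counts at both ages. Its counts were uneven. P22 Het replicate 1 held 15, against 0 to 2 in the other P22 libraries. P7 Homo replicate 6 held 19, against 0 in the other P7 libraries in counts. These libraries also had the highest Tmc2 counts of their ages, 9 and 74. Whether vestibular tissue was carried over was not tested.

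At P22 the question was whether loss of the long Bai1 isoform goes with a different level of transduction genes. All 9 members that passed the filter were higher in Homo than in Het, by 0.11 to 0.41 on the log2 scale, but 0 of 9 were called by edgeR, where 3.15% of 15443 genes were called. Scaled to the 12 hair cell markers, which moved the median of all genes to -0.58, all 9 lay below 0, at -0.49 to -0.18, and above that median. The median difference was 0.33 over the members and 0.01 over all genes, and 52.4% of all genes lay above 0. At an unadjusted p under 0.05 by edgeR there were 8 of 9, against 28.7% of all genes. DESeq2 called 0 of 10, with 6 of 10 at an unadjusted and 3 of 10 at an adjusted p under 0.05. Shares over all genes were not counted for DESeq2, so these counts have no background beside them. Tmc2 failed the filter.

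Cdh23 had the smallest adjusted p. It was at 26.0, 24.9 and 29.7 CPM in P22 Het and 34.6, 37.5 and 34.5 in Homo, with every Homo library above every Het library. The difference was 0.41 (SE 0.0836, 95% interval 0.22 to 0.59, adjusted p = 0.0129), 1.33-fold, under the size limit of a call; 12.3% of all genes had an adjusted p under 0.05 by edgeR, and Cdh23 was the 1 member that did. Tmc1 was at 8.47, 7.95 and 9.97 CPM in Het and 10.9, 12.4 and 11.6 in Homo, also without overlap. Its difference was 0.41 (SE 0.122, 95% interval 0.14 to 0.68, adjusted p = 0.0503). The groups of Tmie did not overlap either, from 4.78 to 5.80 CPM in Het and 6.05 to 7.48 in Homo (0.33, adjusted p = 0.172). Of all genes tested, 33.7% had groups that did not overlap, and 15% did so with Homo higher. Without P22 Het replicate 1 the adjusted p of Cdh23 was 0.0616, and without P22 Het replicate 3 Tmc1 passed as a call (0.51, adjusted p = 0.0444).

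For the other members the groups overlapped. Pcdh15 was at 8.44, 7.61 and 8.95 CPM in Het and 8.05, 12.5 and 11.97 in Homo (0.39, SE 0.166, adjusted p = 0.151), with Homo replicate 1 among the Het values. Ush1c was at 37.9, 30.5 and 28.8 CPM in Het and 37.7, 38.3 and 49.2 in Homo (0.37, adjusted p = 0.0775). Cib2 (0.23), Myo7a (0.22) and Lhfpl5 (0.20) had 95% intervals from 0.01, 0.04 and 0.01 up to 0.46, 0.40 and 0.40, and Ush1g (0.11) one from -0.26 to 0.48. The upper bounds of the intervals of all 9 ran from 1.32-fold to 1.69-fold. Without P22 Het replicate 1 Ush1c passed as a call (0.50, adjusted p = 0.0491), as did Pcdh15 without P22 Homo replicate 1 (0.57, adjusted p = 0.0240).

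**Figure D4:**
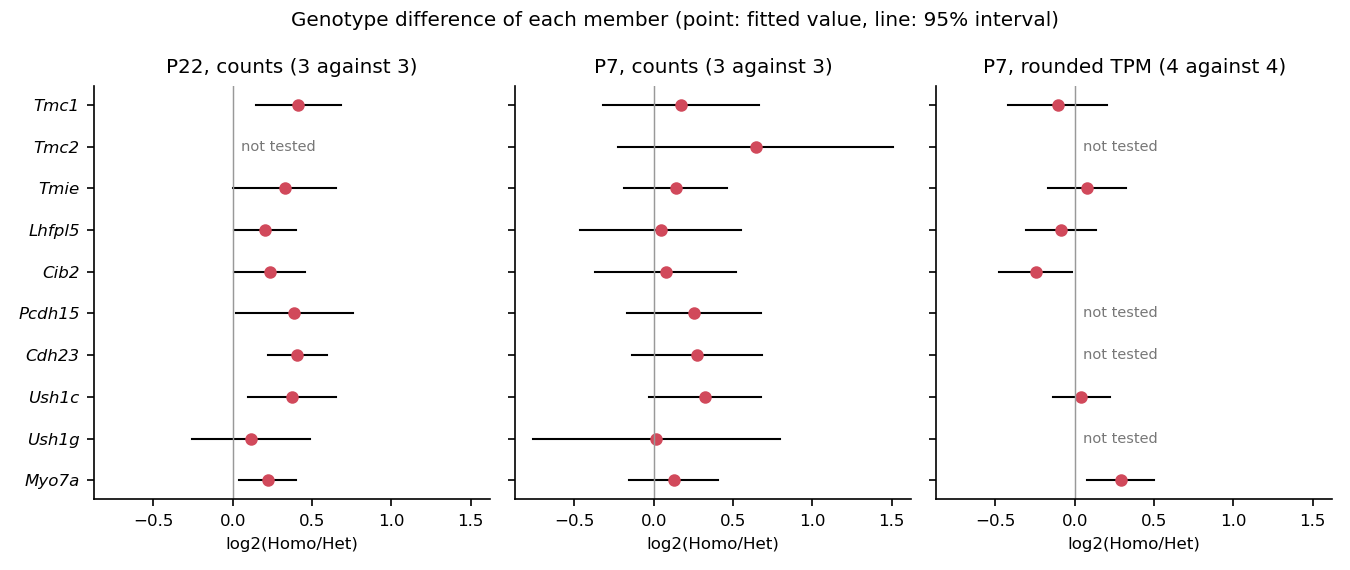
Log2 difference between Homo and Het of each member in the 3 sets, as fitted value (point) and 95% interval (line). At P22 all 9 tested members lie above 0 with scaling to all genes as drawn (scaled to hair cell markers, not drawn, all 9 lay below 0), and in the P7 counts all 10 do (5 of 10 when so scaled), while in the P7 rounded TPM 3 lie above and 3 below.

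Hair cell markers moved with the members at P22. All 12 were above 0 in Homo, 4 were called higher (Barhl1 0.92, Cabp2 0.84, Ocm 0.70 and Otof 0.54), and their median was 0.54. Their summed level was 420 to 452 CPM in Het and 545 to 642 in Homo, beside 205 to 215 and 243 to 275 CPM for the members. Of 8 neuron markers 1 was called lower (median -0.36), with sums of 13742 to 15664 CPM in Het and 10158 to 11592 in Homo. Within a library, the mean log2 level of the members minus that of the hair cell markers was 0.10 ± 0.0938 in Het and -0.14 ± 0.0158 in Homo (n = 3), a difference of -0.24 that was not tested. On the hair cell scale, where the median of all genes was at -0.58, Myo7a was at -0.38 (edgeR, adjusted p = 0.00914) and Lhfpl5 at -0.40 (adjusted p = 0.0115). Cib2 was at -0.36 (adjusted p = 0.0147) and Ush1g at -0.49 (adjusted p = 0.0456), none past the size limit. These values lay above that median, and the share of all genes with such a p on this scale was not counted. The part of hair cell share in the P22 values was not tested.

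Among the other cell types at P22, 1 of 8 supporting cell markers was called higher and 1 lower (median 0.23), 1 of 6 Schwann cell and myelin markers was called higher, and 0 of 5 bone, 0 of 2 tested erythroid, 0 of 4 macrophage and 0 of 4 tested pigment markers were called. Without P22 Het replicate 2, the library with the pigment cell and stria transcripts, Myo7a differed by 0.21 and Cdh23 by 0.35 (adjusted p = 0.0297). Of the other genes of transduction and stereocilia links 16 were tested and 1 was called, Myo15, the motor that carries proteins to stereocilia tips (0.62, adjusted p = 0.0204). Atp2b2 had an adjusted p of 0.00768 at -0.39, below the size limit. The median of that list was 0.25, and of the paralogs 0 of 9 were called (median -0.00).

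At P7, in the libraries given as counts, no genotype difference was called in any of 16026 genes (edgeR, 4.76% at an unadjusted p under 0.05; 0% called). All 10 members lay above 0, by 0.02 to 0.64, against 50.9% of all genes, and 0 of 10 had an unadjusted p under 0.05 by edgeR or by DESeq2. The Homo and Het libraries overlapped for every member, while 10.7% of all genes had groups that did not. Homo replicate 6 was the highest Homo library and Het replicate 6 the lowest Het library for 9 of the 10 members each, so the groups were wide. Tmc1, for instance, was at 32.6, 19.2 and 21.98 CPM in Het and 23.3, 31.8 and 26.7 in Homo (0.17, 95% interval -0.32 to 0.66). Scaled to the hair cell markers, which moved the median of all genes to -0.19, 5 of the 10 lay below 0. Leaving out 1 library could turn Cib2 (-0.12 without Homo replicate 6), Lhfpl5 (-0.10 without Homo replicate 6) and Ush1g (-0.25 without Homo replicate 7) below 0.

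Tmc2 had the largest value at P7. It was at 1.03, 0.798 and 0.892 CPM in Het and 0.828, 2.16 and 1.24 in Homo, a difference of 0.64 (SE 0.368, adjusted p = 0.894). Homo replicate 6 alone carried much of it: without that library the difference was 0.22. The same library held 19 counts of Cib3, against 0 in the other P7 libraries in counts. Ush1c came next at 0.32 (SE 0.151, adjusted p = 0.894), from 114, 80.7 and 114 CPM in Het to 130, 136 and 113 in Homo.

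The other P7 batch, in rounded TPM, was tested with limma on log2(TPM + 1) for the 6 members with a mean of at least 5 TPM. Of these 0 were called, where 0.767% of 11740 genes were called, and 3 lay above and 3 below 0, with 51.4% of all genes above. Myo7a was at 8, 7, 6 and 7 TPM in Het and 9, 11, 9 and 9 in Homo, with no overlap, as for 14.8% of all genes. The difference was 0.29 on that scale (SE 0.0946, adjusted p = 0.0708), and an exact permutation test of the TPM gave p = 0.0286 (n = 4 per group), the smallest possible. Without Het replicate 3, the library with the pigment cell and stria transcripts, the limma difference was 0.24 (adjusted p = 0.179). Cib2 was at 114, 111, 113 and 131 TPM in Het and 100, 102, 125 and 102 in Homo (-0.25, adjusted p = 0.121). These were the 2 members with an unadjusted p under 0.05, a share of 34.3% among all genes.

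The remaining members of that batch showed no separation. Ush1c was at 44, 43, 37 and 37 TPM in Het and 46, 39, 50 and 45 in Homo, Lhfpl5 at 16 to 22 in Het and 19 to 22 in Homo, Tmc1 at 6 to 8 and 5 to 8, and Tmie at 4 to 6 and 5 to 6. Pcdh15 was listed at 2 in all 8 libraries and Cdh23 at 1 or 2. Ush1g was listed at 0 in the Het libraries and at 0, 1, 1 and 1 in Homo, and Tmc2 at 0 in all but Homo replicate 1, which had 1. At this level a whole number holds too little to compare genotypes or to form a ratio of Tmc2 to Tmc1.

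No member passed the test of a difference between the P7 batches in the genotype effect, 0 of 6 by limma at an adjusted or an unadjusted p under 0.05, with 0% of 11441 genes called and 17.7% at an unadjusted p under 0.05. The values ran from -0.31 for Cib2 (SE 0.214, adjusted p = 0.443) to 0.16 for Myo7a (SE 0.149, adjusted p = 0.557). With both P7 sets in 1 fit and batch as a term, 0 of 6 were called. The age by genotype test over the counts called 0 of 10 members by edgeR and by DESeq2, with 1 of 10 at an unadjusted p under 0.05, Tmc2, by edgeR. The shares over the whole table were 0.0306% called and 10.2% with an unadjusted p under 0.05. A genotype difference at P22 was therefore not shown to differ from that at P7 for any member.

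The members varied together from library to library. As the deviation of log2(CPM + 1) from the mean of the age set, averaged over the 10 members, the P22 Het libraries were at -0.08, -0.15 and -0.10 and the Homo libraries at 0.01, 0.13 and 0.19. The hair cell markers were at -0.13, -0.36 and -0.27 and at 0.13, 0.30 and 0.34 in the same libraries, in the same order. At P7 the members were at 0.16, -0.27 and -0.11 in Het and -0.12, 0.28 and 0.06 in Homo, and the markers at 0.20, -0.37 and -0.07 and at -0.22, 0.39 and 0.07. Here the genotypes were mixed, and members and markers correlated over the 6 libraries with r = 0.99 and rho = 1 (exact permutation p = 0.00278 for each, adjusted over the 2 relations computed 0.00491 for r and 0.00556 for rho). Without Het and Homo replicates 6, which lay farthest out, r was 0.96. In the 8 libraries in rounded TPM, over 6 members and 10 markers, r was 0.89 (exact permutation p = 0.00491, adjusted 0.00491) and rho 0.76 (p = 0.0368 by exact permutation, adjusted 0.0368), falling to r = 0.56 without Homo replicates 3 and 4. At P22 the genotypes form separate clusters and no correlation is given. Members and markers share depth and scaling within a library, and both lists hold genes of hair cells. A high r was therefore likely in advance, and what made the lists vary together was not tested.

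**Figure D5:**
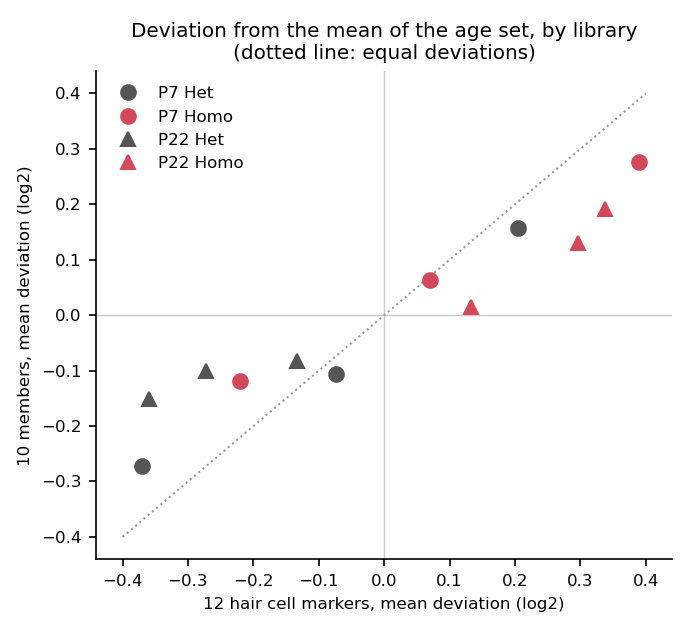
Mean deviation of the 10 members against that of 12 hair cell markers, one point per library (log2 units, circles P7, triangles P22, grey Het, red Homo; the dotted line marks equal deviations). The P7 genotypes are mixed from low to high, while the P22 Het libraries lie at -0.15 to -0.08 and the P22 Homo libraries at 0.01 to 0.19 on the vertical axis.

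The genes whose deviations over the 12 libraries in counts were most like the members' mean, among 11647 with at least 5 CPM at both ages, were Chrna10 (r = 0.96), Otof (0.96), Tomt (0.96), Sorbs2 (0.96), Liph (0.95), Diap1 (0.95), Veph1 (0.95), Mtmr11 (0.94), Rasgrp1 (0.94) and Emx2 (0.94). Chrna10 encodes an acetylcholine receptor subunit of hair cells and Otof the calcium sensor otoferlin of their synapses. Tomt belongs to the wider transduction list, and its product is needed to bring the channel to the stereocilia. The points share depth and scaling within a library, and they include the P22 libraries, where the genotypes form separate clusters. The values describe likeness only. In the rounded TPM the same genes had r from -0.53 (Emx2) to 0.63 (Mtmr11) over 8 libraries, Liph being below the level needed there. Of the genes described above, Tomt was at 0.62, Chrna10 at 0.56 and Otof at 0.13.

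Within the list, agreement with the mean of the other 9 was r = 0.91 for Tmc1, 0.87 for Pcdh15, 0.80 for Tmie, Lhfpl5 and Cdh23, 0.78 for Myo7a, 0.70 for Cib2 and 0.66 for Ush1c over the 12 libraries. Tmc2 (0.42) and Ush1g (0.25), the members with the fewest counts, were the least like the rest. Since the points come from the same libraries, these too are descriptions.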

How the data were processed

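RNA was taken from pools of 4 mice and sequenced after poly(A) selection as paired reads, which the authors processed with an nf-core RNA pipeline on mm10 (per the labels with STAR, Salmon and DESeq2, versions not given in the sources used here). The values as deposited by the authors were estimated counts per gene for P22 and P7 replicates 5 to 7, rounded here to whole numbers. For P7 replicates 1 to 4 the deposited score was TPM rounded to whole numbers, although described as counts: each library sums to 999644 to 999777. The sets were therefore never pooled as counts.

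Counts were tested with edgeR 4.0.16 (filterByExpr, TMM, quasi-likelihood test) and rounded TPM with limma 3.58.1 (trend) on log2(TMM-scaled TPM + 1) at a mean of at least 5 TPM, under R 4.3.3, with Benjamini-Hochberg adjustment over all genes. Fold changes on that scale understate low genes. A call needed an adjusted p under 0.05, a log2 difference over 0.5 and an SE under 0.5, after thresholds the study states, with the SE of the log2 difference used where the study names a log2 standard deviation. Printed CPM use TMM factors over the 12 libraries in counts. The fits were tested on simulated data. DESeq2 1.42.0, other scalings, filters and pseudocounts, a replicate block and leaving out each library were alternatives. Replicate libraries differed by more than counting noise. Nothing in the sources used here says how separate the pools were, so p-values measure the spread between these libraries.

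The members and lists were chosen with earlier results of these data known. Named beside the members, by rule, were other genes of transduction, paralogs and hair cell markers called at P22 between genotypes or among the 3 largest called age differences in each direction, and the 10 genes most like the members. Cib3 and Atp2b2 at P22 were named after their values were seen. Marker lists of other cell types are given by counts. Gene positions are from GENCODE vM21.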

Additional observations from a re-analysis of the deposited data

Results flagged for a closer look

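In 8 groups of 4 libraries in rounded TPM at P7, 1 library was set apart from the others: its gap to the nearest, divided by the range of the group, was above Dixon's 95% critical value for 4 samples. These were Tmc1 in Het replicate 1 (8 TPM), Tmc2 in Homo replicate 1 (1 TPM), Tmie in Homo replicate 2 (5 TPM), Cib2 in Het replicate 4 (131 TPM) and Homo replicate 3 (125 TPM), Cdh23 in Het replicate 3 (1 TPM), Ush1g in Homo replicate 1 (0 TPM) and Myo7a in Homo replicate 2 (11 TPM). In 6 of the 8 the other 3 libraries had the same whole number, so that any step of 1 TPM or more passes. Of the 15 groups with a range, chance sets apart about 1 in 20. Groups of 3 libraries were not examined in this way.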

How the results depend on the processing

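The number of members called between genotypes was 0 in all 3 sets under every alternative, except that leaving out 1 library gave 0 to 1 at P22 and 0 to 0 elsewhere. Between ages it was 8, with 7 by DESeq2, 8 with RLE factors or no filter, 7 scaled to hair cell markers, 6 without TMM scaling (an alternative chosen after seeing the data) and 6 to 8 leaving out 1 library. Scaled to the hair cell markers, which moved the median of all genes from 0.01 to -0.58 for genotype at P22, from 0.00 to -0.19 for genotype in the P7 counts and from -0.05 to 0.94 for age, these turned: at P22 between genotypes Cdh23 -0.19, Cib2 -0.36, Lhfpl5 -0.40, Myo7a -0.38, Pcdh15 -0.22, Tmc1 -0.18, Tmie -0.27, Ush1c -0.22 and Ush1g -0.49, in the P7 counts Cib2 -0.13, Lhfpl5 -0.16, Myo7a -0.0458, Tmie -0.0659 and Ush1g -0.12, and with age Cdh23 1.01, Myo7a 0.83, Pcdh15 0.17 and Tmie 0.47. The cause was not tested. Without TMM scaling, which moved the median of all genes to -0.34 with age and to 0.12 in the rounded TPM, Lhfpl5 in the rounded TPM turned to 0.0258, and Tmc1 there turned to 0.0180 with both P7 sets joined. The age difference of Cdh23, at -0.00, was 0.0122 by DESeq2 and 0.0130 with RLE factors and ran from -0.0720 to 0.0790 leaving out 1 library. Other ranges that crossed 0 when 1 library was left out were, between genotypes in the P7 counts, Cib2 (-0.12 to 0.24), Lhfpl5 (-0.10 to 0.23) and Ush1g (-0.25 to 0.31), and in the rounded TPM Tmc1 (-0.21 to 0.00727) and Ush1c (-0.0192 to 0.11).

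The log2 ratio of Tmc2 to Tmc1 between ages was -1.27 in Het alone and -4.03 in Homo alone, where 3 against 3 cannot pass, -2.33 after adding 0.5 counts, and -3.11 to -2.32 leaving out 1 library (exact permutation p up to 0.00866). Between genotypes at P22 it was -2.90 to -1.88 leaving out 1 library and -2.09 after adding 0.5 counts. Same-numbered Het and Homo libraries did not deviate together (r from -0.23 to 0.08), so the values gave no sign of pairing by number. This cannot show that such pools were collected or processed apart. With the replicate block 0 members were called in each set, and the ratio between genotypes had an exact permutation p of 0.25 at either age. That is the smallest p that sign flips of 3 pairs allow, so this test could not pass. Levels per length with all exon bases in place of the longest transcript were added after seeing the data, and moved the ranks of Cdh23, Tmc1 and Tmie at P22. At the depth of the P22 libraries Tmc2 gave 1 to 9 counts, which limits every statement on it.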
